A study of Homo sapiens with 4 samples.

Results

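The genes described here form the class I antigen presentation pathway: the heavy chains HLA-B, HLA-C, HLA-E and HLA-F, the light chain B2M, the peptide transporter subunits TAP1 and TAP2, the loading protein TAPBP and the transcriptional activator NLRC5. They were chosen by symbol, and each symbol matched 1 row, giving 9 genes of the 59885 rows of the authors' deposited table. All 9 had a base mean above 0, as 30831 rows did, and 8 had an adjusted p, as 16629 rows did. HLA-F was the gene with no adjusted p. The samples are 2 control libraries and 2 CFL1 knockout libraries of total RNA from PANC-1, an established human pancreatic ductal adenocarcinoma line. The product of CFL1 is cofilin-1, which cuts actin filaments, and the design compares transcript levels with and without it. The labels name no guide, clone, control construct or separate culture, so p-values reflect only how much these libraries vary, and that variation may be technical.

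Class I molecules show peptides from inside the cell to cytotoxic T cells and natural killer cells. Peptides cut by the proteasome are pumped into the endoplasmic reticulum by the TAP1-TAP2 transporter, trimmed there, and loaded with the help of tapasin, the product of TAPBP, onto a heavy chain paired with beta-2-microglobulin. NLRC5 is recruited to class I promoters by factors bound to their X and Y boxes, and interferon acts on the same promoters through interferon regulatory factors.

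The promoters of the pathway genes are shown because NLRC5 and interferon act on class I promoters through motifs. RefSeq gave a promoter for 7 of the 9 genes, on the build GRCh38.p14; HLA-E and NLRC5 were not among them. Capitals mark 3 motifs, each searched on both strands in the 250 bases before the start: the interferon response element core GAAANNGAAA (reverse TTTCNNTTTC), the X2 box core TGACGC (reverse GCGTCA) and the CCAAT box (reverse ATTGG). The stretches lie on chr6:31357220-31357379 (minus strand, HLA-B), chr6:31272133-31272292 (minus strand, HLA-C), chr15:44711357-44711476 (plus strand, B2M), chr6:32853745-32853864 (minus strand, TAP1), chr6:32838740-32838859 (minus strand, TAP2), chr6:33314079-33314198 (minus strand, TAPBP) and chr6:29723254-29723393 (plus strand, HLA-F). All lie before the start of the gene.
HLA-B: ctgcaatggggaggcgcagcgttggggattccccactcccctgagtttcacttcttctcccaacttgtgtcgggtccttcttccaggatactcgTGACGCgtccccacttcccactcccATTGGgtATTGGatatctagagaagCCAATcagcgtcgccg
HLA-C: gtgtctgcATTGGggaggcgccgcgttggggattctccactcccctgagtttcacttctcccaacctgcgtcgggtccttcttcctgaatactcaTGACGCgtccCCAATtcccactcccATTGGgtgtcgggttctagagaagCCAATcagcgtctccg
B2M: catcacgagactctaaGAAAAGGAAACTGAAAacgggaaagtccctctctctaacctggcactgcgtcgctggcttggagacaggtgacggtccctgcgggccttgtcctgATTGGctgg
TAP1: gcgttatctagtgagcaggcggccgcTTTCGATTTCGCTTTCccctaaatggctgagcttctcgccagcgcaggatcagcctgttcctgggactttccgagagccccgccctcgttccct
TAP2: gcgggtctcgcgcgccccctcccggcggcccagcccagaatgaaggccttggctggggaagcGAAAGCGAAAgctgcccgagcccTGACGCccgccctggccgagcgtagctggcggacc
TAPBP: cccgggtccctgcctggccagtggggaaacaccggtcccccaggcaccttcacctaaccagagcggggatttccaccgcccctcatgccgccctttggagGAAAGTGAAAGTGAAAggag
HLA-F: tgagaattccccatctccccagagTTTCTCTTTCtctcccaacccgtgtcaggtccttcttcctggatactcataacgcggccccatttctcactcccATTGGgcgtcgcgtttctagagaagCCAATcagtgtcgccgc

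The interferon response element core was found in 5 of the 7 promoters, those of HLA-F, B2M, TAP1, TAP2 and TAPBP, and in 3.02% of all 35116 promoters of that length. B2M, TAP1 and TAPBP each held 2 overlapping matches. The CCAAT box was found in 5 of the 7 (HLA-B, HLA-C, HLA-F, B2M and TAP1) against 32.0% of all promoters, and the match in TAP1, which begins 249 bases before the start, lies outside the stretch shown. The X2 box core was found in 3 of the 7 (HLA-B, HLA-C and TAP2) against 7.67% of all. Only exact matches were counted. The promoters of HLA-B and HLA-C, without a match to the interferon response element core, may hold elements that depart from it. These matches describe letters only, and no binding was measured.

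Reads in each library were recovered from the digits of the deposited base means, and a normalized count below is a library's recovered reads divided by its size factor. The recovered libraries held 16851907 reads (control A), 17173557 (control B), 17242608 (knockout A) and 14540747 (knockout B); these letters cannot be matched to the label numbers. Control B was unlike the other libraries. Across genes, Pearson's r of log2 normalized counts was 0.72 between the controls, 0.71 to 0.72 between control B and the knockouts, and 0.98 between control A and each knockout. CFL1 itself stood at 6276 normalized counts in control A but 13761 in control B, and at 2285 and 2487 in the knockouts, so that the groups did not overlap. The authors' deposited table gives it a log2 fold change of -2.07 (SE 0.454, DESeq2 adjusted p = 0.00168). Without control B, limma gave CFL1 a log2 difference of -1.40 (adjusted p = 0.297), which is not a call. Of the epithelial markers, KRT8 and KRT18 were abundant in every library. KRT8 stood at 13712.5, 29355, 8150 and 8049 normalized counts in the controls A and B and the knockouts A and B. In the same order, KRT18 stood at 11358, 22850, 9031 and 8321. Other epithelial markers were low outside control B: KRT19 stood at 1.82, 2481, 0 and 0, and CDH1 at 12.7, 164, 3.54 and 2.16. EPCAM stood at 6.36, 42.5, 7.08 and 16.2. KRT7 went the other way, at 108 in control B and 3551 to 4000 in the others. VIM, the mesenchymal filament vimentin that is on the same list of markers for the line, stood at 7747, 57155, 9226 and 9273 in that order. The list's 7 genes summed to 36389, 112157, 30418 and 29344, and without VIM the other 6 summed to 28642, 55002, 21191 and 20071. In control B, 5 of these 6 and VIM were at least 2-fold above each other library, and KRT7 was at least 2-fold below. The 9 leukocyte markers summed to 60.4 to 85.0 with HLA-DRA and LYZ at 0, and the 2 endothelial markers in the table to 8.94 to 38.2. The 4 fibroblast markers summed to 869 to 1580 with LUM at 0, and members of that list moved in opposite directions. PDGFRB stood at 513, 6.71, 439 and 451, so that control B was 65.5-fold below the lowest of the others, whereas COL1A1 stood at 354, 1574, 687 and 556, so that control B was 2.29 times the highest. Fewer cells of a type and less RNA per cell cannot be told apart in these bulk samples. The labels name PANC-1 for all 4 libraries; whether control B holds the same cells as the others was not tested, and every fold change of the authors' table rests on both controls. The part that these marker differences have in the results below was not tested.

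No class I gene was called between knockouts and controls: by the authors' deposited DESeq2 adjusted p, 0 of the 8 tested genes passed 0.05, where 0.559% of all tested genes did (93 of 16629). At an unadjusted p under 0.05, 2 of the 9 passed, HLA-E and HLA-F, both lower in the knockouts. That rule takes 7.62% of all genes with a p, and 5.65% in the lower direction. The fold change was below 0 for 8 of the 9, all but NLRC5, although with limma HLA-B and HLA-C turned above 0 when reads were scaled to library totals, and 6 of the 8 did when control B was left out. The table's values have a median log2 fold change of -0.84 over the 9 and of -0.76 over the 8 tested, against -0.03 over all 16614 tested genes with recovered reads. Both knockouts lay below both controls for 2 of the 9 genes and above both for 0, against 21.2% and 23.9% of all tested genes. The groups overlapped for the other 7 of the 9. In these 7, control A lay among the knockouts or below them, and control B lay outside the range of the other 3 libraries.

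**Figure D1:**
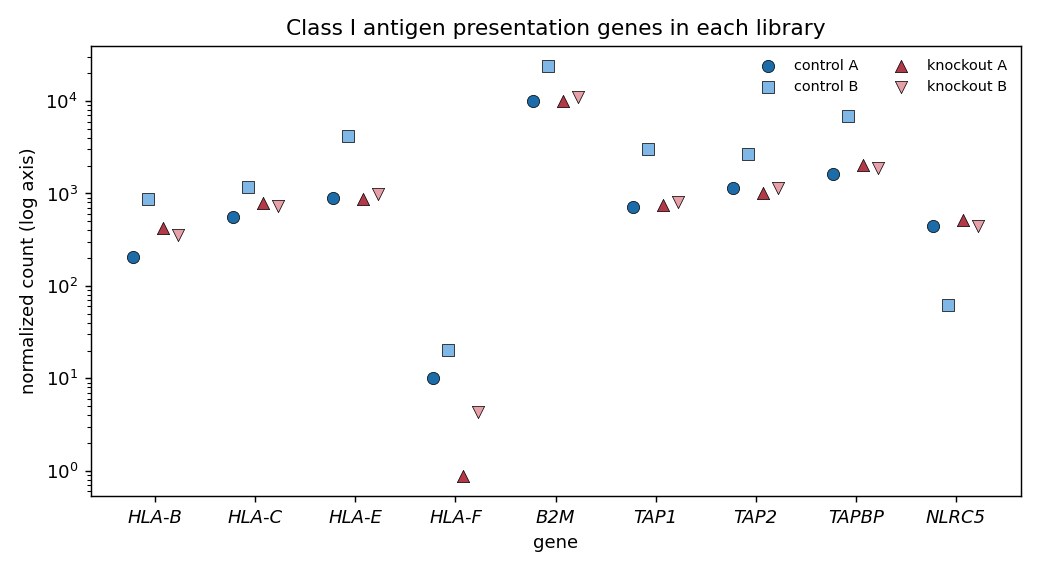
Normalized counts (log axis) of the 9 class I antigen presentation genes in each of the 4 libraries, 1 point per library. Control B (light squares) is the highest library for 8 genes and the lowest for NLRC5, and for HLA-E, B2M, TAP1, TAP2, TAPBP and NLRC5 control A and the knockouts (triangles) lie within 1.25 times of each other.

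Among the heavy chains, HLA-B and HLA-C present peptides to CD8 T cells and bind killer cell receptors. HLA-B (ENSG00000234745.10_2_HLA-B) stood at 204 normalized counts in control A but 882 in control B, and at 427 and 357 in knockouts A and B. The knockouts thus lay between the controls, at 1.92 times control A on average. The authors' deposited table gives HLA-B a log2 fold change of -0.47 (SE 0.744, DESeq2 adjusted p = 0.785). A second test, limma on log2(normalized count + 1), allowed each control to be left out. Set against control A alone with limma, the log2 difference of HLA-B was 0.93 (SE 0.167, adjusted p = 0.373), and against control B alone it was -1.17 (SE 0.169, adjusted p = 0.0601). Its sign therefore turned with the control library used. In each of these fits the lone control is assumed to vary as the knockouts do.

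HLA-C (ENSG00000204525.16_2_HLA-C) had the same order of libraries, at 553 in control A but 1160.2 in control B, and at 795 and 734 in knockouts A and B. Here too the groups overlapped, with both knockouts between the controls. The authors' deposited table gives HLA-C a log2 fold change of -0.16 (SE 0.459, DESeq2 adjusted p = 0.878). With limma, the log2 difference was 0.46 (SE 0.0828, adjusted p = 0.373) from control A and -0.60 (SE 0.0846, adjusted p = 0.0586) from control B. HLA-C was the single gene of the 9 for which control B was less than 2-fold from its nearest library, at 1.46 times knockout A.

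HLA-E presents leader peptides of other class I chains to the NKG2A receptor of natural killer cells. HLA-E (ENSG00000204592.8_2_HLA-E) stood at 885 in control A but 4214 in control B, and at 869 and 988 in knockouts A and B. Control A lay between the knockouts, and control B was 4.27 times the highest of the other libraries. The authors' deposited table gives HLA-E a log2 fold change of -1.46 (SE 0.737, unadjusted p = 0.0478, DESeq2 adjusted p = 0.391). By limma, HLA-E differed on the log2 scale by 0.07 (SE 0.121, adjusted p = 0.825) from control A and -2.18 (SE 0.124, adjusted p = 0.0273) from control B.

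HLA-F, a non-classical chain also found at the cell surface without peptide, was detected in few reads. HLA-F (ENSG00000204642.13_3_HLA-F) had 11 reads in control A and 18 in B, against 1 and 4 in knockouts A and B. As normalized counts with exact 95% Poisson intervals, these were 9.997 (4.99 to 17.9), 20.1 (11.9 to 31.8), 0.885 (0.0224 to 4.93) and 4.31 (1.18 to 11.04). Both knockouts lay below both controls, although the interval of knockout B overlapped that of control A; the intervals cover counting error only. The authors' deposited table gives HLA-F a log2 fold change of -2.57 (SE 1.27, unadjusted p = 0.0426) and no adjusted p, its base mean of 8.83 being under the lowest that has one, 12.5. With limma its log2 difference was -1.80 (SE 0.949, adjusted p = 0.517) from control A and -2.74 (SE 0.961, adjusted p = 0.176) from control B. HLA-F is thus the single gene of the 9 with a knockout mean more than 2-fold from control A on the low side, at 0.260 times it.

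Heavy chain genes are near-identical in long stretches and highly polymorphic, and RSEM may divide their reads between copies. The levels of HLA-B, HLA-C, HLA-E and HLA-F are uncertain to that extent, as are those of the related MICA and MICB and of the ULBP genes below.

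B2M, the light chain that pairs with class I heavy chains, was the most abundant of the 9. B2M (ENSG00000166710.17_2_B2M) stood at 9946 in control A but 23658 in control B, and at 9991 and 10964 in knockouts A and B. Control A and the knockouts lay within 1.10 times of each other, and control B was 2.16 times the highest of them. The authors' deposited table gives B2M a log2 fold change of -0.68 (SE 0.482, DESeq2 adjusted p = 0.548). For B2M the limma log2 difference was 0.07 (SE 0.124, adjusted p = 0.804) from control A and -1.18 (SE 0.101, adjusted p = 0.0363) from control B.

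TAP1 and TAP2 encode the subunits of the transporter that carries peptides into the endoplasmic reticulum. TAP1 (ENSG00000168394.10_2_TAP1) stood at 705 in control A but 3012 in control B, and at 748 and 815 in knockouts A and B. The knockouts lay just above control A, and control B was 3.69 times the highest of the others. The authors' deposited table gives TAP1 a log2 fold change of -1.25 (SE 0.705, DESeq2 adjusted p = 0.447). The limma log2 difference of TAP1 was 0.15 (SE 0.0873, adjusted p = 0.549) from control A and -1.95 (SE 0.0889, adjusted p = 0.0260) from control B.

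TAP2 (ENSG00000204267.13_3_TAP2) stood at 1146 in control A but 2675 in control B, and at 999.7 and 1139.9 in knockouts A and B. It was the single tested gene of the 8 with both knockouts below both controls, an order found in 21.2% of all tested genes; none of the 8 had both knockouts above, as 23.9% did. Knockout B nevertheless lay within the exact 95% Poisson interval of control A, which ran from 1084 to 1211. The authors' deposited table gives TAP2 a log2 fold change of -0.84 (SE 0.492, DESeq2 adjusted p = 0.467). The limma log2 difference of TAP2 was -0.10 (SE 0.123, adjusted p = 0.730) from control A and -1.32 (SE 0.126, adjusted p = 0.0400) from control B.

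TAPBP encodes tapasin, which bridges the transporter and the empty heavy chain. TAPBP (ENSG00000231925.11_2_TAPBP) stood at 1610.5 in control A but 6802 in control B, and at 2010.0 and 1907 in knockouts A and B. Both knockouts lay above control A, at 1.22 times it on average, and control B was 3.38 times the highest of the others. The authors' deposited table gives TAPBP a log2 fold change of -1.10 (SE 0.688, DESeq2 adjusted p = 0.491). The limma log2 difference of TAPBP was 0.28 (SE 0.0648, adjusted p = 0.385) from control A and -1.80 (SE 0.0647, adjusted p = 0.0260) from control B.

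NLRC5, an activator of class I promoters, went the opposite way in control B. NLRC5 (ENSG00000140853.15_3_NLRC5) stood at 450 in control A but 61.5 in control B, and at 520 and 441 in knockouts A and B. Control B was 7.17-fold below the lowest of the others, on 55 reads, and control A lay between the knockouts. The authors' deposited table gives NLRC5 a log2 fold change of 0.91 (SE 0.917, DESeq2 adjusted p = 0.669). The limma log2 difference of NLRC5 was 0.09 (SE 0.153, adjusted p = 0.805) from control A and 2.94 (SE 0.161, adjusted p = 0.0268) from control B. The library with the least NLRC5 was thus the library with the most of each of the other 8 transcripts. This order rests on control B alone, and a link between NLRC5 and the other transcripts was not tested. For HLA-F, the exact Poisson intervals of the controls overlapped.

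**Figure D2:**
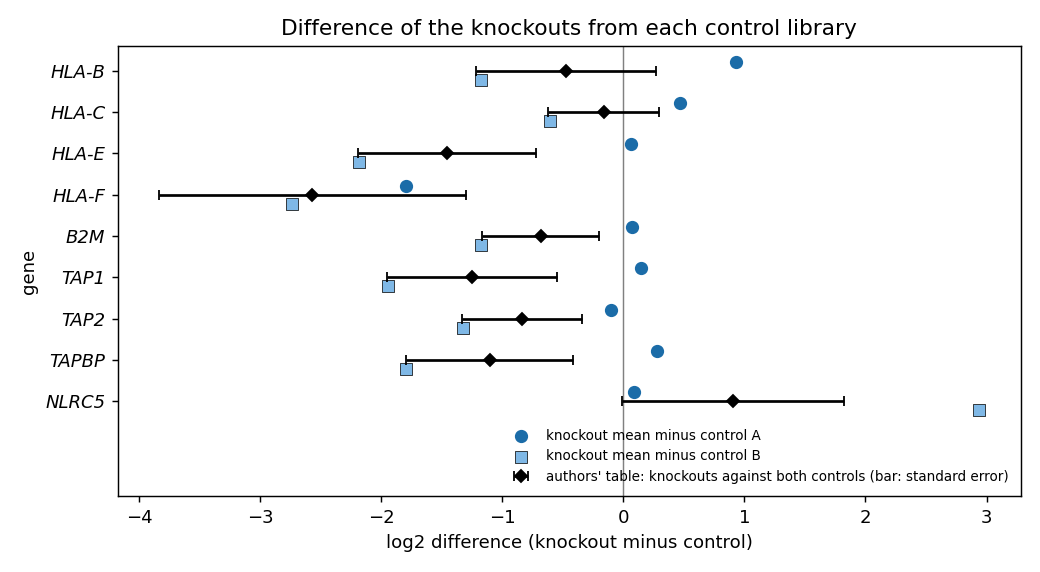
Log2 difference of the knockouts from control A (dark circles), from control B (light squares) and, as the authors' deposited table gives it, from both controls (diamonds, bars are 1 standard error) for the 9 genes. Against control A, 7 of the 9 lie above 0 and HLA-F lies far below; against control B, NLRC5 alone lies above 0. The comparisons share the knockout libraries.

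Counted over the genes, control B was the highest library for 8 of the 9, against 43.2% of all tested genes. It was at least 2-fold above each other library for 7 of the 9 and for 6 of the 8 tested, against 16.5% of all, and at least 2-fold below for 1, NLRC5, against 20.8%. The median log2 difference between the controls, taken without sign, was 2.08 over the 9 genes and 0.87 over all tested genes, while between the knockouts it was 0.19 and 0.15. The median of the knockouts minus control A was 0.09 over the 9 and 0.01 over all; minus control B it was -1.32 and 0.01.

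With limma on all 4 libraries, 0 of the 9 genes and 0% of 24978 genes passed an adjusted p of 0.05, and at an unadjusted p under 0.05 none of the 9 and 503 genes did. Without control B, 0 of the 9 and again 0% of the genes passed, and at an unadjusted p under 0.05 there were 3 of the 9 (HLA-B, HLA-C and TAPBP, all higher in the knockouts) against 12.9% of all. Without control A, 6 of the 9 were called, HLA-E, B2M, TAP1, TAP2 and TAPBP lower and NLRC5 higher, where 33.6% of all genes were called, 4052 lower and 4348 higher. These last calls set the knockouts against control B alone.

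Per kilobase of the longest coding transcript, the mean normalized count over the 4 libraries was highest for B2M at 8000.0, followed by TAPBP at 820.0, HLA-E at 669, HLA-C at 522, TAP1 at 446, HLA-B at 302, TAP2 at 262, NLRC5 at 53.9 and HLA-F at 5.40. B2M lay above every other gene in every library, at 5834 to 13876 per kilobase. The genes from TAPBP to TAP2 overlapped with their neighbours in this order once each library was considered: TAPBP ran from 428 to 1810 per kilobase, HLA-E from 334 to 1620, HLA-C from 356 to 747, TAP1 from 238 to 1018, HLA-B from 132 to 570 and TAP2 from 176 to 471. HLA-C lay above HLA-E in control A and both knockouts and below it in control B. NLRC5, at 9.01 to 76.2, overlapped with HLA-F, at 0.542 to 12.3, through control B alone.

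The rest of the pathway was followed in 4 lists, of 54 genes in all, of which 50 had an adjusted p. By the DESeq2 adjusted p that the authors' deposited table gives, none of the 50 (0) was called. At an unadjusted p under 0.05, 8 of the 54 passed, all 8 lower in the knockouts. Of all 30831 genes with a p, 7.62% passed, and 5.65% passed in the lower direction. An adjusted p was given for 16629 of those 30831 genes and for 50 of the 54 listed, so the shares are not of like genes. Control B was at least 2-fold above each other library for 16 of the 50 and at least 2-fold below for 1, where 16.5% and 20.8% of all tested genes were. With limma and without control B, 0 of the 53 fitted genes were called and 7 had an unadjusted p under 0.05, where 12.9% of all genes did. Without control A, 25 of the 53 were called, 22 lower and 3 higher, where 33.6% of all genes were.

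Peptide supply and loading partners, 12 genes all tested, had a median of -0.27 for the log2 fold change that the authors' deposited table gives, with ERAP1 and ERAP2 at an unadjusted p under 0.05. ERAP2, an aminopeptidase that trims peptides to class I length, stood at 55.4 in control A but 858 in control B, and at 40.7 and 42.1 in knockouts A and B. The authors' deposited table gives ERAP2 a log2 fold change of -3.46 (SE 1.16, DESeq2 adjusted p = 0.160). The immunoproteasome subunits PSMB8 and PSMB9 were also highest in control B: PSMB9 stood at 64.5, 303, 100.1 and 84.1 in the same order of libraries, and PSMB8 at 67.3, 330, 111 and 106. PSMB8 and PSMB9 were chosen after their values were seen. PSMB10, an immunoproteasome subunit on the same list, was highest in control B by less, at 84.5, 150, 90.3 and 98.1. HSPA5, the most abundant of the list and a chaperone of the endoplasmic reticulum, stood at 15607, 35967, 18681 and 16894. PSME1, a subunit of the proteasome activator, differed little, at 890, 865, 967 and 1100. Both knockouts lay above both controls for PSME1 alone of the 12 and below both for ERAP2 alone. Over all tested genes these orders were found in 23.9% and 21.2%.

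Of the 18 transcription factors of class I promoters, all tested, 1 had an unadjusted p under 0.05 and the median log2 fold change, from the authors' deposited table, was -0.30. That gene was IRF1, the interferon-induced activator of class I and TAP1 promoters, which stood at 278 in control A but 1814 in control B, and at 279 and 306 in knockouts A and B. The authors' deposited table gives IRF1 a log2 fold change of -1.84 (SE 0.857, DESeq2 adjusted p = 0.350). RFXANK, a subunit of the RFX complex that binds the X box, stood at 298, 205, 501 and 302 in the same order, with knockout A apart from knockout B.

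Of the 10 interferon receptors and kinases, all tested, 2 had an unadjusted p under 0.05, IFNGR2 and JAK1, and the median log2 fold change, from the authors' deposited table, was -0.71. IFNGR2, a chain of the interferon gamma receptor, stood at 595 in control A but 5343 in control B, and at 623 and 646 in knockouts A and B. JAK1, a kinase of the interferon receptors, stood at 2911, 10643, 2679 and 2909, and JAK2 at 579, 276, 472 and 419. For IFNGR2 and JAK1, as for IRF1, control A lay within or next to the range of the knockouts.

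Of the 14 class I-like genes and ligands of natural killer cells, 10 were tested. An unadjusted p under 0.05 was found for 3: PROCR, MICB and ULBP3. Both knockouts lay below both controls for these 3 of the 10 and above both for 2, against 21.2% and 23.9% of all tested genes. MICB, a stress-induced ligand of the NKG2D receptor, stood at 519 in control A but 2271 in control B, and at 309 and 339 in knockouts A and B. The authors' deposited table gives MICB a log2 fold change of -2.11 (SE 0.725, DESeq2 adjusted p = 0.173), and the limma log2 difference from control A alone was -0.68 (unadjusted p = 0.0193, adjusted p = 0.359). HFE, a class I-like regulator of iron uptake, stood at 631, 319, 638 and 635. Control B was the low library, and both knockouts lay just above control A. The median log2 fold change of this list, from the authors' deposited table, was -0.03.

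The median log2 difference of the knockouts from control A and from control B was 0.20 and -0.78 for the peptide supply and loading partners and -0.01 and -0.49 for the transcription factors. For the interferon receptors and kinases it was -0.05 and -1.18, and for the class I-like genes and ligands -0.11 and -0.09. Over all tested genes it was 0.01 from either control.

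**Figure D3:**
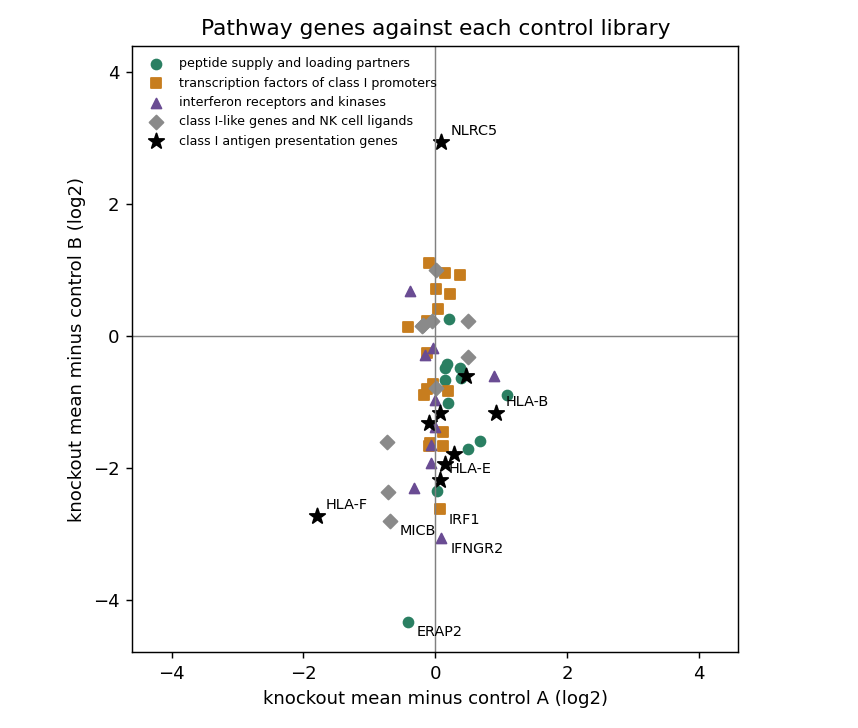
Log2 difference of the knockout mean from control A (horizontal) and from control B (vertical) for the 9 class I genes (stars) and the 50 tested genes of the 4 pathway lists, 1 point per gene. Most points spread along the vertical axis and lie near 0 on the horizontal one, with ERAP2 lowest; both axes use the same knockout libraries.

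The mean pattern of the 8 class I genes whose base mean reached 100, centred over the libraries on the log2 scale, was -0.41 for control A, 0.74 for control B, and -0.16 and -0.17 for knockouts A and B. NLRC5 is within that mean and lowers its control B value. Among 11614 other genes with a mean of at least 100, the 5 nearest to it over the 4 libraries by Euclidean distance were IGF2R at 0.019, VHL at 0.025, BCL2L2 at 0.035, COX7A2L at 0.037 and DSC2 at 0.038. IGF2R stood at 4970.4 in control A but 10870 in control B, and at 5846 and 5778 in knockouts A and B. All 5 have both knockouts between the controls, an order that follows from choosing them by nearness to that mean pattern. Of the class I genes, HLA-B, HLA-C, B2M, TAP1 and TAPBP have this order, and HLA-E, HLA-F, TAP2 and NLRC5 do not.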

How the data were processed

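Total RNA of CFL1 knockout and control PANC-1 cells, with an RNA integrity number of at least 7, was sequenced, per the labels' protocols. Per the submitters' processing notes, the tools were cutadapt, FastQC, STAR and RSEM, without versions, and the build was hg19. The base mean, a signal deposited by the authors, averages size-factor-normalized counts of the 4 libraries. The log2 fold change with its standard error, the Wald score, the p-value and its Benjamini-Hochberg adjustment were deposited by the authors from DESeq2. No coordinates on hg19 are given. The genes and lists were chosen with earlier results of these data known.

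Whole reads per library were recovered from base means printed to 15 digits, each the sum over libraries of reads times a fixed step, and checked by refitting the deposited fold change. Reads were assigned for 30816 of 30831 genes (99.95%). Genes with no reads in a group had no refit and were taken as matching. A gene with a single division by the digits was kept even where its refit missed the limit. Above a base mean of 10, 16829 of 17295 genes (97.3%) lay within 1e-06 log2 or were taken as matching. All 9 genes described were refitted and lay within 1e-06. For B2M, 186 divisions met the digits and 1 met that limit, the next lying 9e-06 away; the other 8 genes had 1 division each. RSEM estimates counts, so recovered reads are its rounded estimates. The 14 genes with base means of at least 40000 were not solved and 1 had no solution.

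limma 3.58.1 (R 4.3.3) with a trended prior was fitted to log2(normalized count + 1), keeping the 24978 genes whose mean reached 1; this scale understates changes of low genes. Both the recovery and limma were tested on simulated data. Lengths per kilobase came from the longest coding transcript in GENCODE 29, which is on another build, and promoters from RefSeq; TAP1 had 2 entries, and the first was used. Named genes are the 9, CFL1, in each list the called genes or else the most abundant gene and the largest rise and fall at a base mean of at least 100, and the 5 nearest genes. The values of 1 listed gene that this rule names, and of 1 further motif searched in the promoters, are not reported here. Alternatives were other filters, thresholds, pseudocounts and scalings, and leaving out each library. Python 3.11.15, numpy 2.4.6, numba 0.67.0, pandas 2.3.3, scipy 1.17.1 and matplotlib 3.10.9 were used.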

Additional observations from a re-analysis of the deposited data

How the results depend on the processing

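The count of genes called by the authors' adjusted p, 93, was 78 without independent filtering, 91 and 77 with base means of at least 10 and 100, and 62 at an adjusted p of 0.01; it was 2349 at an unadjusted p. With limma it was 0 with a pseudocount of 1 or 0.1, with a mean of at least 10 and with scaling to library totals, and from 0 to 8400 when each library was left out in turn, the 8400 coming without control A. The count of class I genes called was 0 under these settings except at an unadjusted p, where it was 2, and without control A, where it was 6, so that leaving out each library gave 0 to 6. The median log2 fold change of the 9 genes was -0.84 in the authors' deposited values and -0.71 with limma on all 4 libraries. With limma it ranged from -1.32 without control A to 0.09 without control B. Without control B the sign turned for HLA-B, HLA-C, HLA-E, B2M, TAP1 and TAPBP, and without knockout B for HLA-B (0.0063). For HLA-B the change of method alone moved the value from -0.47 to -0.12, with limma on all 4 libraries. Leaving out each library in turn, the lowest value coming without control A and the highest without control B, the log2 fold change ranged from -1.17 to 0.93 for HLA-B, -0.60 to 0.46 for HLA-C, -2.18 to 0.065 for HLA-E, -1.18 to 0.074 for B2M, -1.95 to 0.15 for TAP1 and -1.80 to 0.28 for TAPBP. Scaling to library totals moved the median log2 fold change of all genes up by 0.14 and turned the sign of HLA-B (0.026) and HLA-C (0.079). HLA-F, TAP2 and NLRC5 kept their sign under the alternatives that gave them a value; HLA-F had none with a mean of at least 10. Depth limits HLA-F, at 1 to 18 reads per library. No paired analysis was possible because the recovered libraries cannot be tied to the replicate numbers in the labels.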
